A study of Arabidopsis thaliana with 20 samples.

Results

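The 230 widest m6A peaks on the 5 nuclear chromosomes of Arabidopsis thaliana were described across 5 genotypes and set against the other 2017 nuclear peaks. They were chosen by width alone, as the 230 of 2247 nuclear peaks with the largest distance between start and end, in a deposited list of 2291 peaks that also holds plastid and mitochondrial ones. The measured m6A values took no part in the choice. The peaks came from MeRIP-seq of chromatin-associated RNA, in which an antibody against N6-methyladenosine (m6A) pulls down fragments of RNA that stays bound to chromatin, and peaks are stretches where fragments pile up over the unselected input.

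Whole seedlings, 10 days old, were used throughout, and every line was in the Col-0 background. Plants labelled OE ALKBH5 del-cIDR overexpress human ALKBH5 without the part that the labels call cIDR (del-cIDR), the series being about intrinsically disordered regions of the protein. Plants labelled OE ALKBH5 del-cIDR H204A carry the same truncated protein with the H204A change, and the series calls these mutants inactive (inactive del-cIDR). Plants labelled OE ALKBH5 FL overexpress the full-length protein (FL), and those labelled OE ALKBH5 FL H204A its inactive form (inactive FL). Wild-type Col-0 plants, labelled WT, served as the control. For each genotype there were 2 libraries of immunoprecipitated RNA (IP) and 2 of input RNA. The promoter of the transgenes and the number of independent lines are not given in the sources used here, and the RNA of the transgene was not analysed here.

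The modification m6A is laid down on messenger RNA by a writer complex around MTA and MTB, read by YTH-domain proteins such as the ECT family, and removed by demethylases of the ALKBH family. ALKBH5 is a mammalian m6A demethylase of the nucleus, and plants have demethylases of the same family, among them ALKBH9B and ALKBH10B. Plant m6A lies mostly near the 3′ end of messenger RNAs. Chromatin-associated RNA also holds RNA still being made and RNA from repeats and pseudogenes, which reaches the cytoplasm less.

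Each peak has the authors' m6A ratio in every IP library, and the deposited scaling gives the m6A spike-in a reading of 10.579 in all of them. The denominator of the ratio is not stated, and sequencing depth is unknown. Differences are log2 differences of the ratio plus 0.542, which understates the change of low peaks, tested by limma over all 2291 peaks with Benjamini-Hochberg adjustment, and a call is an adjusted p under 0.05. What separates the 2 libraries of a genotype is not stated, so the p-values cover no more than the spread among these libraries, and that spread may be technical. For m6A the fit took each peak's error from its level, not from its own libraries. A wide gap between the 2 libraries at a single peak is therefore not reflected in its p-value. The labelled tissue was checked in the input libraries, where 5 green-shoot genes had signals of 565 to 127082, 8 root genes 11.69 to 545, 2 seed storage genes 123 to 709 and 3 flower genes 0.907 to 46.5.

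The widest peaks ran from 452 to 9329 bases, with a median of 605.5 bases, against 200 to 452 bases and a median of 279 in the other nuclear peaks. A total of 64 were over 1 kb, 28 over 2 kb and 4 over 5 kb, and together the 230 covered 29.8% of the length of all nuclear peaks. The lower edge of the choice has no gap. Just inside it lay a peak of 453 bases on chromosome 4, one of 452 bases in AT3G13070 and one of 452 bases in GRIK1, a kinase gene. Just outside lay peaks of 452 bases in EMB1303, 451 bases in HDA05, a histone deacetylase gene, and 451 bases in AT1G76140. The tie at 452 bases was settled by the order of the file.

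The longest peaks lay mainly in pseudogenes and ribosomal RNA loci rather than in protein-coding genes. By an overlap of at least 50% of the peak with a gene of RefSeq's TAIR10.1 table, 137 of the 230 (59.6%) lay in protein-coding genes, against 1896 of 2017 other nuclear peaks (94.0%). Pseudogenes held 42 of the widest peaks (18.3%), against 23 of the others (1.14%). A peak that met the overlap for both a pseudogene and a protein-coding gene was counted here. Pseudogene is the gene table's label, and whether these are gene copies or transposable elements was not examined. Nor was the number of alike copies, which bears on where reads are placed. The 2 rRNA loci, at the top of chromosome 2 and in the middle of chromosome 3, held 16 (6.96%), against 3 of the others. Any peak within 6 kb of an rRNA gene was put in this class first, whether or not it overlapped a gene. A further 19 overlapped no gene, 14 overlapped genes by less than 50% of the peak, and 2 lay in other RNA genes.

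These classes followed each other along the order of width. Among the 25 widest peaks, of 2220 to 9329 bases, 14 lay in pseudogenes, 4 at rRNA loci and 3 in protein-coding genes. Among ranks 26 to 60 the counts were 17, 6 and 5 in the same order of classes. Protein-coding genes took the majority only from rank 61 on, with 29 of the 55 peaks of 609 to 1044 bases, and 100 of the remaining peaks of 452 to 602 bases, where pseudogenes held 3. The upper ranks were thus mostly pseudogene and rRNA-locus peaks, and the lower ranks mostly peaks of protein-coding genes.

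Many of the long peaks stood next to another. A total of 75 of the 230 (32.6%) lay within 2000 bases of another nuclear peak, against 92 of the 2017 others (4.56%). There were 22 such runs with more than 1 of the widest peaks, holding 65 of them, and 19 genes carried more than 1. Peaks that stand side by side over 1 transcript are not independent, so counts over peaks below are not counts of transcripts.

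The deposited list passes through the chromosomes 2 times, and what separates its passes is not stated. Of the widest peaks, 147 stood in the first pass and 83 in the second. At rRNA loci 14 of 16 widest peaks overlapped a peak of the other pass, and near the centromeres 7 of 11 did, while 4 of 137 in protein-coding genes and 0 of 42 in pseudogenes did. Over the gene by coordinate, whatever its strand, 63.0% of the first pass's widest peaks had their centre in the first 20% of the gene, against 85.8% of the other nuclear peaks of that pass. In the second pass 54.2% were centred in the last 20%, against 85.0% of the others. In both passes the share of widest peaks centred near that end of the gene was the smaller one, and the difference was not tested. A peak that covers much of its gene is centred near the middle, so width itself can lower this share. All host classes were pooled here, and they differed between the sets. The coding genes that held the widest peaks had a median length of 4454 bases, against 3516 bases for the hosts of other nuclear peaks.

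**Figure D1:**
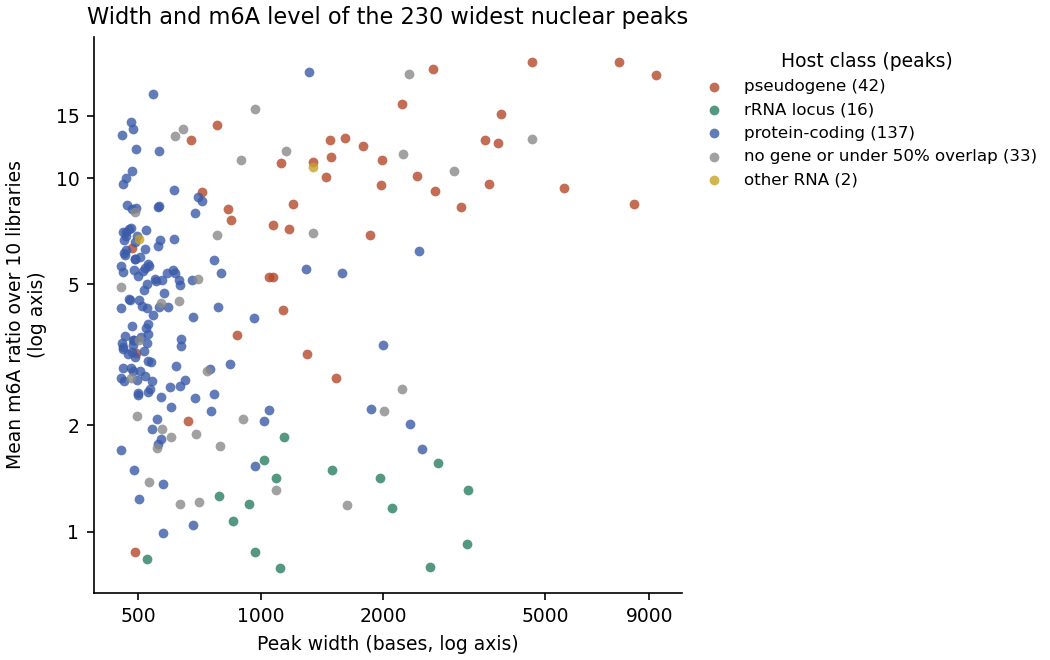
Width of each of the 230 widest nuclear peaks in bases (horizontal, log axis) against its mean m6A ratio over the 10 IP libraries (vertical, log axis), coloured by the class of the gene that holds it. Pseudogene peaks lie mostly at the upper right, up to 9329 bases, rRNA-locus peaks low at ratios of 0.791 to 1.86, and protein-coding peaks mostly at the left.

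Across genotypes the widest peaks moved with the other nuclear peaks and stood slightly above them. Their median ratio was 2.98 and 1.998 in the del-cIDR libraries, 2.95 and 5.06 in inactive del-cIDR, 2.67 and 5.81 in FL, 3.31 and 4.38 in inactive FL, and 7.87 and 8.15 in Col-0. The medians of the other nuclear peaks were 2.67 and 1.69 in del-cIDR plants, 2.54 and 4.59 in inactive del-cIDR, 2.21 and 4.64 in FL, 2.996 and 3.65 in inactive FL, and 6.60 and 7.09 in Col-0. Both Col-0 libraries lay above all 8 libraries of the transgenic lines, for the widest peaks and for the others.

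The level of the widest peaks was above that of the others in all 10 libraries, by 0.12 to 0.29 on the log2 scale. The mean of this offset was 0.19, and it was 0.34 for the widest 5.12% of nuclear peaks and 0.14 for the widest 20.5%. As a description over peaks that share libraries, Spearman's rho of width with level was 0.16 over the 2247 nuclear peaks, 0.09 over the 230 and -0.22 over the 137 in protein-coding genes. Within the widest peaks width and level were thus only weakly related.

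The level differed by the class of the host. Averaged over the 10 libraries, the median ratio was 9.465 for pseudogene peaks, 4.32 for protein-coding peaks, 2.08 for peaks with no gene and 1.23 for rRNA-locus peaks. Among the other nuclear peaks, pseudogene peaks had a median of 2.24, protein-coding peaks 4.08 and rRNA-locus peaks 1.11. Wide pseudogene peaks thus had a higher median than narrow ones, while the medians of protein-coding peaks were close in both sets.

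The 2 libraries of a genotype differed by class as well. In del-cIDR the second library was 0.739 times the first over the widest peaks and 0.746 times in pseudogenes, but 1.29 times at rRNA loci. In FL the second library was 2.09 times the first over the widest peaks, 2.29 times in pseudogenes and 2.11 times in protein-coding genes, but 0.977 times at rRNA loci and 1.06 times near the centromeres. In inactive del-cIDR it was 1.80 times the first over all, 1.95 times in pseudogenes and 1.19 times at rRNA loci. In inactive FL the ratio was 1.20 over all and 0.459 near the centromeres, and in Col-0 it was 1.04 over all. These are medians over peaks of the ratio of library 2 to library 1. The part of this difference between libraries in the results was not tested beyond leaving out each library in turn.

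**Figure D2:**
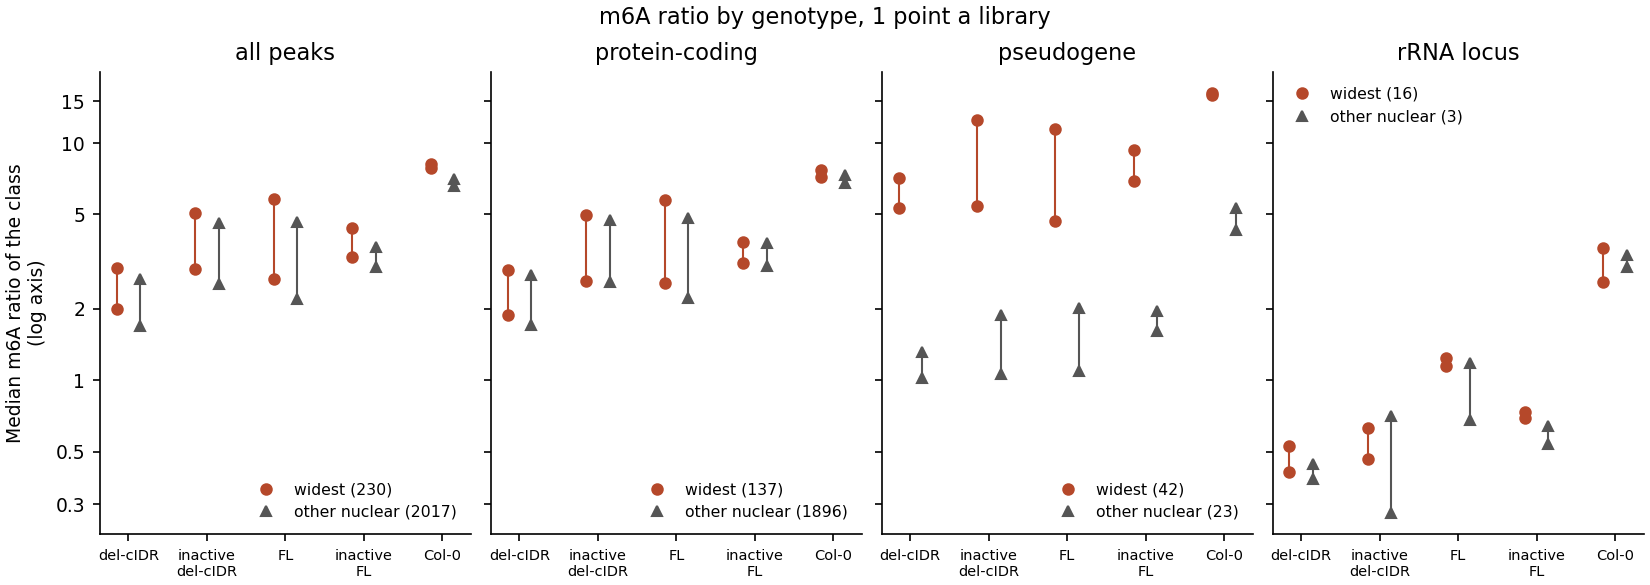
Median m6A ratio (log axis) in each IP library, 1 point a library and a line joining the 2 libraries of a genotype, for the widest peaks (circles) and the other nuclear peaks (triangles), over all peaks and by host class. Both Col-0 libraries lie highest in every panel, at 7.87 and 8.15 for the widest peaks, and the 2 FL libraries lie far apart (2.67 and 5.81).

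The highest of the widest peaks formed 1 run on chromosome 4, of 8 peaks in 37935 bases (chr4:5046531-5084466, TAIR10 per the submitters' processing notes, coordinates as deposited). The widest peak of all, of 9329 bases at chr4:5048975-5058304 over the pseudogene AT4G08109, had m6A ratios of 14.2 and 9.61 in del-cIDR plants, 12.4 and 21.9 in inactive del-cIDR, 11.2 and 26.6 in FL, 14.5 and 22.9 in inactive FL, and 27.3 and 35.6 in Col-0. Every transgenic library lay below both Col-0 libraries. The difference passed the test for del-cIDR against Col-0 (log2 difference -1.38, SE 0.575, limma adjusted p = 0.0253) and not for FL (-0.83, limma adjusted p = 0.213), inactive del-cIDR (-0.90, 0.207) or inactive FL (-0.76, 0.256).

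Its neighbour over AT4G08114, of 7577 bases, had ratios of 17.6 and 11.3 in del-cIDR plants, 14.5 and 26.9 in inactive del-cIDR, 10.8 and 26.8 in FL, 15.5 and 24.1 in inactive FL, and 33.0 and 32.2 in Col-0. The other peaks of the run ranged in mean ratio from 9.62 over AT4G08100 to 21.3 over AT4G08115, and the 5 peaks of highest level among all 230 were 4 of this run and AT1G20400. Of the 8 peaks, 5 were called lower in del-cIDR than in Col-0, against 79.8% of all 2291 peaks. In the other 3 lines 0 of the 8 were called, against 24.1% of all peaks in inactive del-cIDR, 22.7% in FL and 21.8% in inactive FL. All 8 lay in the highest of the 5 level classes described below. There 1.85%, 3.94% and 0.522% of the other nuclear peaks were called in these 3 lines, and 67.7% in del-cIDR. The calls in the run rested on single libraries. Without del-cIDR library 2, or without either Col-0 library, 0 of the 8 were called in del-cIDR, without del-cIDR library 1 there were 2, and without FL library 2 all 8 were called in FL. The choice of this run, like that of the other loci below, was made after hosts and values were seen, so their counts are descriptions.

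A second pair of very long peaks stood among immune receptor genes on chromosome 4, where NLR genes, whose products detect pathogens, lie in a cluster with RPP4 and SNC1. The peak at chr4:9484014-9492257, of 8243 bases, covered the pseudogene AT4G16870 and part of RPP4. Its ratios were 6.38 and 4.63 in del-cIDR plants, 4.64 and 8.45 in inactive del-cIDR, 5.34 and 11.71 in FL, 6.60 and 8.73 in inactive FL, and 13.0 and 15.09 in Col-0. It was lower in del-cIDR than in Col-0 (-1.28, SE 0.577, limma adjusted p = 0.0361), and all 8 transgenic libraries lay below both of Col-0. This call was lost without either library of del-cIDR, inactive FL or Col-0. The peak at chr4:9508647-9513290, of 4643 bases over AT4G16910 and AT4G16900, had ratios of 10.4 and 7.86 in del-cIDR plants, 6.45 and 13.96 in inactive del-cIDR, 7.96 and 16.7 in FL, 9.87 and 13.9 in inactive FL, and 19.0 and 23.2 in Col-0. Its difference between del-cIDR and Col-0 did not pass (-1.17, limma adjusted p = 0.0531).

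The remaining 3 of the 10 widest peaks also lay in pseudogenes. The peak of 5562 bases in AT3G28945 had a mean ratio of 9.39, the peak of 3828 bases over AT3G05410 and AT3G05415 one of 12.5, and the peak of 3561 bases in AT1G20390 one of 12.8. In AT3G28945 the libraries had 7.33 and 5.50 in del-cIDR plants, 6.45 and 13.3 in inactive del-cIDR, 4.56 and 10.1 in FL, 7.66 and 9.68 in inactive FL, and 13.8 and 15.4 in Col-0. The groups of del-cIDR and Col-0 did not overlap, but the difference did not pass (-1.14, limma adjusted p = 0.0594).

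Across genes with several peaks the levels were uneven. AT1G58602 carried peaks of 3100 and 2685 bases, in a part that overlaps the pseudogene AT1G58561, with mean ratios of 8.28 and 9.18, and a separate peak of 575 bases with 1.37. The short one, at 0.570 and 0.355 in del-cIDR plants, 0.930 and 1.45 in inactive del-cIDR, 0.705 and 1.22 in FL, 0.892 and 1.16 in inactive FL, and 3.34 and 3.05 in Col-0, was called lower in all 4 lines (log2 differences -1.90, -1.13, -1.33 and -1.26, with limma adjusted p at most 0.00772). The FL call was lost without FL library 1 or Col-0 library 1, and those of both inactive lines without their own library 1 or either Col-0 library, while the del-cIDR call stayed with each library left out. The long ones were called in 0 of the 4 lines. In the run of 5 peaks around the pseudogene AT4G04410 on the short arm of chromosome 4, mean ratios ran from 2.72 to 10.5, and all 5 were called lower in del-cIDR, against 79.8% of all peaks, and 0 in the other lines. In each line the share of peaks called was lower at high level than at low level, as described below. The count in del-cIDR was 0 without its library 2 or without either Col-0 library, and that in FL was 5 without FL library 2.

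In del-cIDR the largest log2 differences from Col-0 among the widest peaks lay in protein-coding genes, at peaks whose mean ratios of 2.02 to 2.58 were below the lower quartile of 2.85 of the widest protein-coding peaks. The peak at chr3:20201942-20203809 in AT3G54580, of 1867 bases, had ratios of 0.232 and 0.473 in del-cIDR plants, 0.569 and 0.865 in inactive del-cIDR, 1.12 and 2.41 in FL, 0.203 and 0.891 in inactive FL, and 7.85 and 7.56 in Col-0. It was called lower than Col-0 in del-cIDR (log2 difference -3.22, SE 0.370, limma adjusted p = 8.79e-17), inactive del-cIDR (-2.72, 3.77e-12), FL (-1.90, 5.37e-06) and inactive FL (-3.00, 1.41e-14). All 8 transgenic libraries lay well below both Col-0 libraries, the highest being FL library 2. The second wide peak of the gene, of 765 bases, was called lower in all 4 lines as well, with 1 value of 0 in inactive del-cIDR and -2.05 in FL (limma adjusted p = 2.14e-05).

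Similar values were found in 3 other genes that the gene table lists by identifier only. In AT3G28550 the 2328-base peak had 0.214 and 0.536 in del-cIDR plants, 0.924 and 1.38 in inactive del-cIDR, 0.800 and 1.77 in FL, 1.01 and 1.30 in inactive FL, and 7.21 and 5.07 in Col-0, and was lower in del-cIDR by 2.87 on the log2 scale (log2 difference -2.87, limma adjusted p = 6.46e-12). In AT1G23720 the del-cIDR difference from Col-0 was -2.82 (limma adjusted p = 1.83e-09), and in AT2G15880 it was -2.37 (limma adjusted p = 5.15e-11). All 3 were called lower in all 4 lines.

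A set of 4 of the widest peaks lay in genes for structural proteins of the cell wall, chosen among genes with a symbol and not a full list. They were in EXT3 and EXT4, which encode extensins, and LRX3, which encodes a leucine-rich repeat extensin. The last was in CWLP, which encodes a proline-rich linker between wall and plasma membrane. All 4 were called lower in del-cIDR, inactive del-cIDR, FL and inactive FL than in Col-0, and no other nuclear peak lay in these genes. Of all peaks 79.8%, 24.1%, 22.7% and 21.8% were called in these lines, in the same order. In LRX3 the ratios were 0.344 and 0.619 in del-cIDR plants, 0.579 and 1.45 in inactive del-cIDR, 1.76 and 2.22 in FL, 1.13 and 0.759 in inactive FL, and 6.34 and 6.67 in Col-0. The difference in del-cIDR was -2.80 (SE 0.414, limma adjusted p = 2.46e-10) and in FL -1.48 (limma adjusted p = 0.00376). The FL calls rested on single libraries: 2 of the 4 were called without FL library 1, 0 without Col-0 library 1 and 1 without Col-0 library 2. Coding sequences of this kind are repetitive and alike, so the split of reads between them is uncertain. What AT3G54580, AT3G28550, AT1G23720 and AT2G15880 encode was not examined, and the same limit may hold for them.

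In CAB2 and CAB3, neighbouring genes for the LHCB1 light-harvesting protein, the wide peaks had low ratios. CAB2 had 0.268 and 0.394 in del-cIDR plants, 0.284 and 0.544 in inactive del-cIDR, 0.556 and 0.932 in FL, 0.457 and 0.463 in inactive FL, and 3.40 and 3.11 in Col-0. It was called lower in all 4 lines, from -1.58 in FL (limma adjusted p = 3.83e-08) to -2.12 in del-cIDR (limma adjusted p = 1.06e-14), and CAB3 likewise. These genes are near-identical copies, so reads may be split between them.

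At the rRNA loci, the input RNA had been depleted of ribosomal RNA, and the 2 loci are near-identical copies, so reads cannot be placed firmly. Median ratios of the 16 peaks were 0.411 and 0.529 in del-cIDR plants, 0.464 and 0.631 in inactive del-cIDR, 1.24 and 1.15 in FL, 0.738 and 0.692 in inactive FL, and 3.62 and 2.58 in Col-0. Of the 16, 15 were called lower than Col-0 in del-cIDR, 15 in inactive del-cIDR, 10 in FL and 15 in inactive FL. Of all peaks, 79.8%, 24.1%, 22.7% and 21.8% were called in the same lines. The 16 had low mean ratios of 0.791 to 1.86. In the lowest level class described below, 98.2%, 76.3%, 70.2% and 74.2% of the other nuclear peaks were called, in the same order. Of the 16, the shares were 93.75%, 93.75%, 62.5% and 93.75%, so those in del-cIDR and FL were below that class. As 14 of the 16 overlapped a peak of the other pass, these are not counts of separate stretches. The counts in FL and inactive FL were 3 and 9 without Col-0 library 1, while those in del-cIDR stayed at 15 with each library left out. The one peak not called in del-cIDR, at chr2:4351-5462 in the rRNA gene AT2G01010, was the lowest of all 230, with 0.774 and 1.12 in del-cIDR plants, 0.779 and 0.391 in inactive del-cIDR, 0.407 and 0.452 in FL, 0.525 and 1.02 in inactive FL, and 0.804 and 1.64 in Col-0. Its Col-0 libraries overlapped those of del-cIDR and inactive FL.

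Close to the centromeres of chromosomes 1, 3, 4 and 5 stood 11 of the widest peaks, 10 of them in no gene. At these, 10 were called lower than Col-0 in del-cIDR, 10 in inactive del-cIDR, 3 in FL and 9 in inactive FL, against 79.8%, 24.1%, 22.7% and 21.8% of all peaks in the same lines. The share of 3 of 11 in FL was near that of all peaks. The 11 peaks had low mean ratios of 1.19 to 2.84. In the lowest of the 5 level classes described below, 98.2%, 76.3%, 70.2% and 74.2% of the other nuclear peaks were called in these lines. At chr5:11703561-11704463 the ratios were 0.864 and 0 in del-cIDR plants, 0.565 and 0.549 in inactive del-cIDR, 2.94 and 2.79 in FL, 2.07 and 0.890 in inactive FL, and 5.50 and 4.62 in Col-0. The FL libraries were above every library of the other 3 lines there. The count in inactive FL was 3 without its library 2 or without Col-0 library 1, and 5 without Col-0 library 2, and that in FL was 1 without FL library 1 or without either Col-0 library. At chr4:3953490-3953986 the Col-0 libraries were themselves far apart, at 2.75 and 11.67. The difference of inactive del-cIDR from Col-0 was -2.74 with both (limma adjusted p = 4.86e-13) and -1.80 without Col-0 library 2. That p-value rests on an error taken from the peak's level and does not reflect the gap between its Col-0 libraries.

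**Figure D3:**
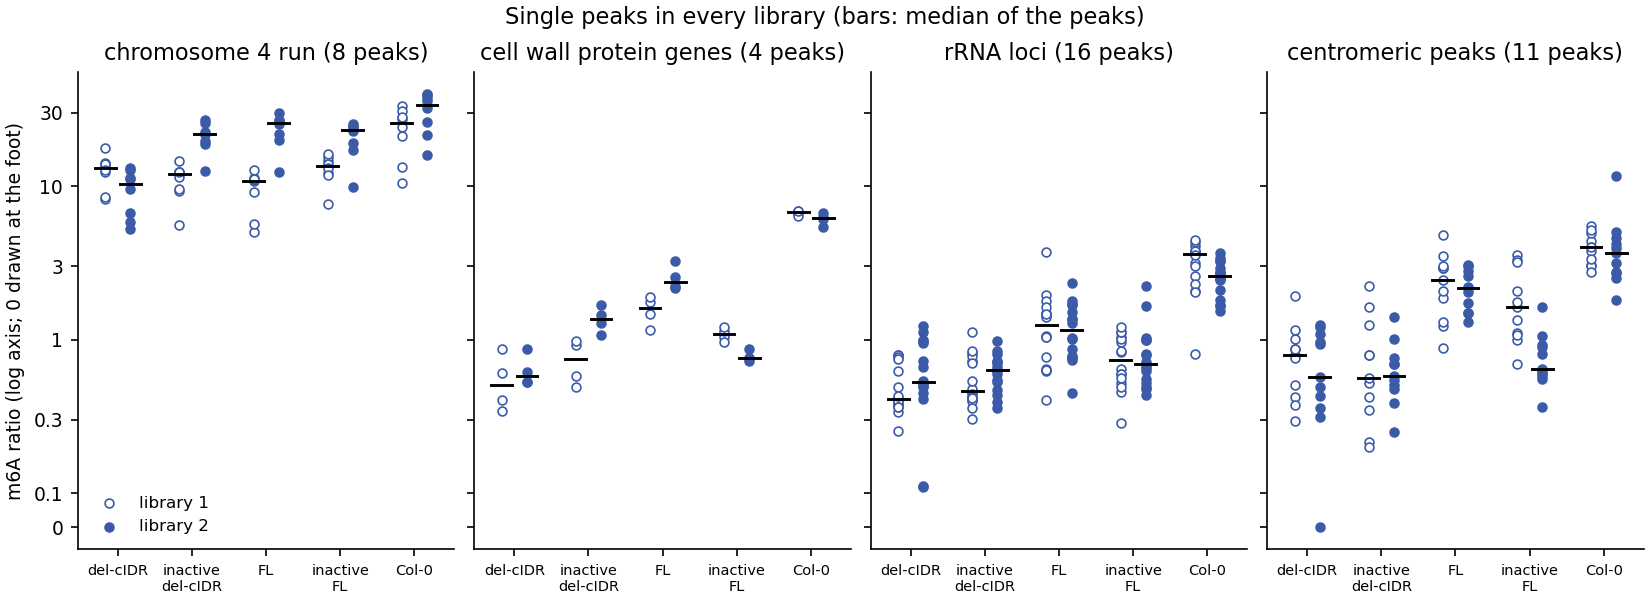
m6A ratio (log axis, values of 0 drawn at the foot) of each peak in each IP library for 4 sets of widest peaks, with open circles for library 1, filled circles for library 2 and bars for the median of the peaks. In the chromosome 4 run the median of library 2 lies above library 1 in inactive del-cIDR, FL and inactive FL, while at the cell wall genes and rRNA loci nearly all values of the 4 lines lie below those of Col-0.

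On messenger RNAs of RNA-processing and chromatin factors, 12 of the widest peaks had mean ratios of 2.26 to 12.1. FCA, which promotes flowering by acting on the 3′ end processing of FLC antisense RNA, carried a peak of 516 bases with 2.28 and 1.59 in del-cIDR plants, 2.57 and 5.18 in inactive del-cIDR, 3.22 and 7.35 in FL, 3.899 and 4.98 in inactive FL, and 8.90 and 8.26 in Col-0. It was lower in del-cIDR than in Col-0 (-1.89, SE 0.573, limma adjusted p = 0.00302), and the differences of FL (-0.74, limma adjusted p = 0.253), inactive del-cIDR (-1.11, 0.131) and inactive FL (-0.88, 0.203) did not pass. The highest was in HUB1, an E3 ligase for histone H2B ubiquitination, with 6.57 and 5.42 in del-cIDR plants, 9.39 and 16.9 in inactive del-cIDR, 6.59 and 14.01 in FL, 7.43 and 10.3 in inactive FL, and 17.1 and 27.4 in Col-0. Of the 12, 8 were called lower in del-cIDR, against 79.8% of all peaks, among them CPL2 and CPL3, phosphatases of the RNA polymerase II tail, THO2 of the THO export complex and PKDM7D, a histone demethylase. In FL, inactive del-cIDR and inactive FL 0 of the 12 were called, with median log2 differences of -0.99, -0.88 and -0.93. Of the other nuclear peaks in the highest level class, 3.94%, 1.85% and 0.522% were called in these lines. In the lowest class 70.2%, 76.3% and 74.2% were. The count in del-cIDR was 2 without its library 2 and 3 without Col-0 library 2, and that in FL was 11 without FL library 2.

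Over all widest peaks, ratios were lower than in Col-0 in each of the 4 transgenic lines, in shares near those of all peaks. In del-cIDR against Col-0, 183 of 230 were called lower and 0 higher, against 79.8% of all peaks and 79.7% of the other nuclear peaks called lower. The median log2 difference was -1.52, against -1.51 in the other nuclear peaks, and all 230 were below 0. The count fell to 68 without del-cIDR library 2, 69 without Col-0 library 2 and 79 without Col-0 library 1.

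In FL against Col-0, 47 of 230 were called lower and 0 higher, against 22.7% of all peaks and 22.1% of the other nuclear peaks called lower. The median log2 difference was -1.01, and 228 of 230 were below 0. The count was 14 without Col-0 library 1, 21 without FL library 1, 22 without Col-0 library 2 and 172 without FL library 2, so it turned on which FL library was kept.

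In inactive del-cIDR against Col-0, 62 of 230 were called lower and 0 higher, against 24.1% of all peaks and 22.3% of the other nuclear peaks, and the median log2 difference was -0.98. The count was 41 without Col-0 library 1. In inactive FL against Col-0, 53 of 230 were called lower and 0 higher, against 21.8% of all peaks and 20.4% of the other nuclear peaks, and the median was -0.98. The count was 31 and 35 without Col-0 library 1 and 2, and 86 without either FL library. The lines with an inactive enzyme were thus below Col-0 as well, and these contrasts share their Col-0 libraries.

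With each library centred on the other nuclear peaks, 0 of the widest peaks were called in any of the 7 contrasts. After removal of the median shift of the other nuclear peaks, no call was thus left. With 2 libraries a genotype, a lack of calls does not show that every peak moved by that shift alone. The longer peak of AT3G54580 was at -3.22 in del-cIDR, beside a median of -1.51 in the other nuclear peaks. The peak at chr1:8814591-8816593 was at 0.17 in inactive FL, beside their median of -0.96.

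**Figure D4:**
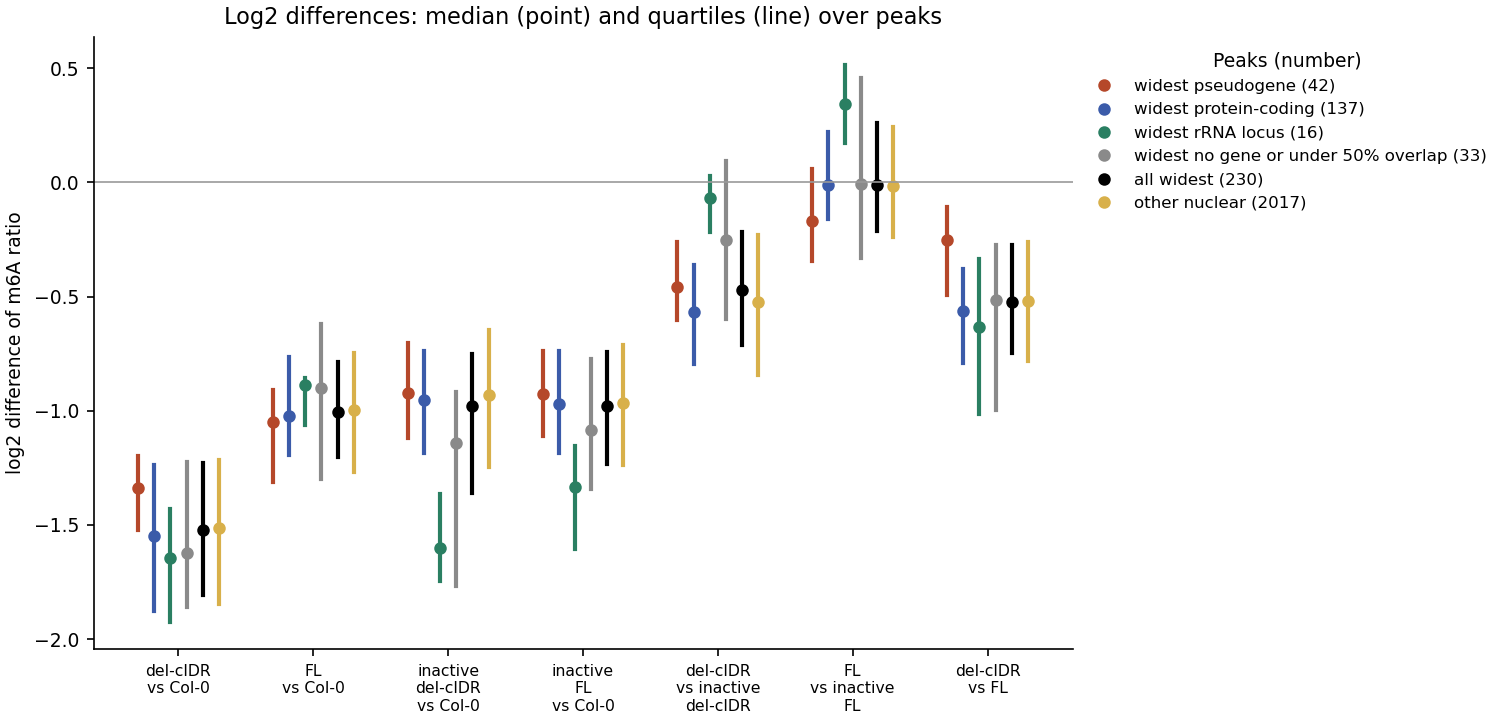
Log2 difference of the m6A ratio (vertical) in the 7 contrasts, with the median (point) and the quartiles (line) over the widest peaks by host class, over all widest peaks and over the other nuclear peaks. In the 4 contrasts against Col-0 all medians lie below 0, and those of the widest and the other peaks lie within 0.05 of each other, at -1.52 and -1.51 for del-cIDR.

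Beside those of the rRNA-locus peaks given above, the counts called were read by host class. In pseudogenes 32 of 42 were called lower than Col-0 in del-cIDR, 6 in inactive del-cIDR, 7 in FL and 1 in inactive FL. In protein-coding genes the counts were 111 of 137 in del-cIDR, 26 in inactive del-cIDR, 21 in FL and 24 in inactive FL. In del-cIDR these were 76.2% of pseudogene and 81.0% of protein-coding peaks, both near the 79.8% of all peaks. In inactive del-cIDR they were 14.3% and 19.0%, against 24.1% of all peaks, in FL 16.7% and 15.3%, against 22.7%, and in inactive FL 2.38% and 17.5%, against 21.8%. These shares are not matched for level, and pseudogene peaks had a high median ratio of 9.465. In the highest level class 1.85%, 3.94% and 0.522% of the other nuclear peaks were called in these 3 lines. The median log2 differences of pseudogene peaks were -1.34 in del-cIDR, -0.92 in inactive del-cIDR, -1.05 in FL and -0.93 in inactive FL. The pseudogene counts in del-cIDR were 3 without del-cIDR library 2, 2 without Col-0 library 1 and 5 without Col-0 library 2, and in FL 38 without FL library 2 and 1 without FL library 1 or without either Col-0 library. The protein-coding counts in del-cIDR were 35 without del-cIDR library 2, 48 without Col-0 library 1 and 36 without Col-0 library 2, and in FL 101 without FL library 2 and 8 to 10 without FL library 1 or either Col-0 library. In inactive FL 45 protein-coding peaks were called without either FL library, and in inactive del-cIDR the count ran from 16 to 46 over the libraries left out.

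The share called also varied with the level of the peaks. Peaks were put into 5 level classes by libraries outside each contrast, and in the lowest class 59.6% of the widest and 70.2% of the other nuclear peaks were called lower in FL, while in the highest class 2.90% and 3.94% were. In inactive FL the shares were 81.0% of the widest and 74.2% of the others in the lowest class, and 0% and 0.522% in the highest. In del-cIDR they were 96.3% and 98.2% in the lowest and 66.7% and 67.7% in the highest. In the lowest class the share of widest peaks called was below that of the others in del-cIDR and FL and above it in inactive del-cIDR (84.5% against 76.3%) and inactive FL, with no order common to the lines. The error that limma assigned also followed the level, from an SE of 0.223 at the pseudogene AT2G07712, with a mean ratio of 0.876, to 0.577 at the peak over RPP4.

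**Figure D5:**
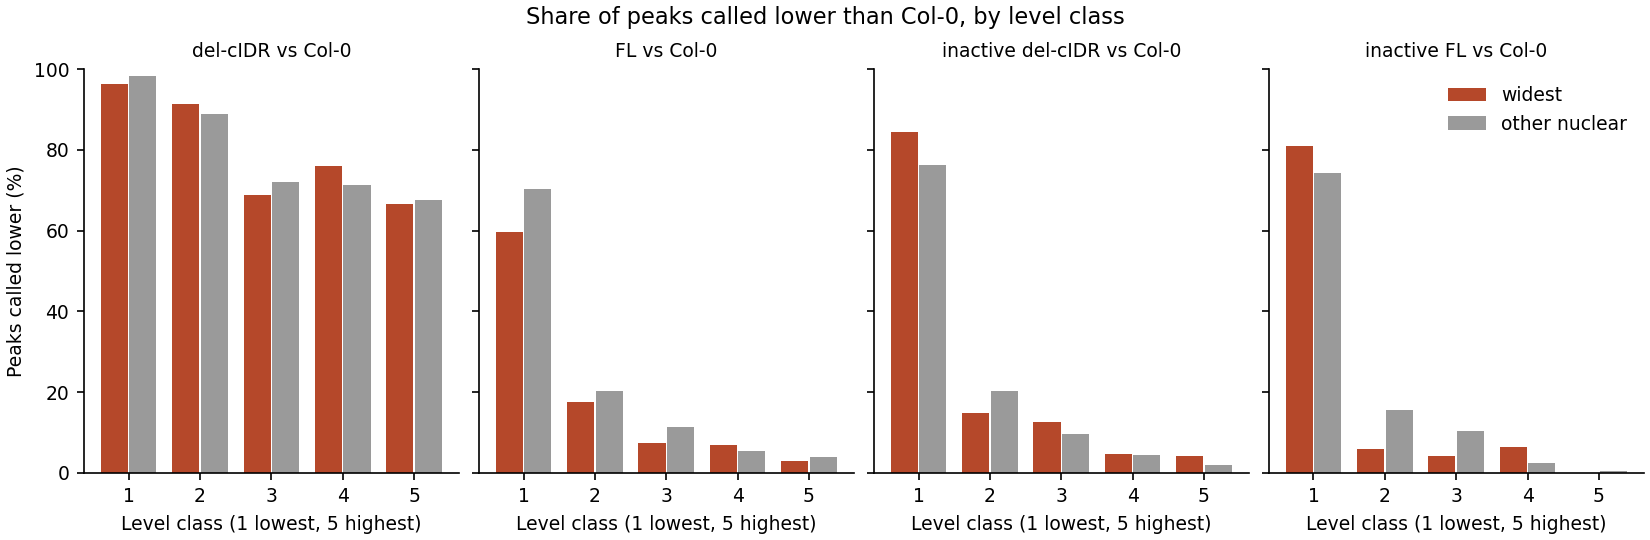
Share of peaks called lower than Col-0 (vertical, percent) in 5 classes of m6A level taken from libraries outside the contrast, for the widest peaks (red) and the other nuclear peaks (grey) in 4 lines. In FL the share falls with level, at 59.6% of the widest and 70.2% of the other peaks in the lowest class and 2.90% and 3.94% in the highest.

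Each active form was compared directly with its inactive form. These are separate lines whose transgene RNA was not analysed, so catalysis, line and transgene level cannot be told apart. In del-cIDR against inactive del-cIDR 1 of the 230 was called lower and 0 higher, against 0.175% of all peaks and 0.149% of the other nuclear peaks called lower. The median log2 difference was -0.47, with 201 of 230 below 0, and 12 were lower at an unadjusted p under 0.05. In FL against inactive FL 0 were called lower and 0 higher, against 0% and 0.218% of all peaks and 0% and 0.248% of the other nuclear peaks. The median was -0.01, with 2 lower and 14 higher at an unadjusted p under 0.05. The test of the difference between these 2 activity effects called 0 of 230 by limma, with 17 at an unadjusted p under 0.05 and a smallest adjusted p of 0.131.

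The 1 peak called between del-cIDR and its inactive form, of 2002 bases at chr1:8814591-8816593, overlaps the protein-coding genes AT1G25097 and AT1G25112 and the long non-coding RNA gene AT1G25098, each by less than 50% of the peak. Its ratios were 0 and 0.386 in del-cIDR plants, 0.917 and 4.76 in inactive del-cIDR, 0.875 and 0.872 in FL, 3.29 and 4.23 in inactive FL, and 2.82 and 3.78 in Col-0. Both active lines lay below both of their inactive counterparts and below Col-0, and the ranges of both inactive lines overlapped that of Col-0. The difference of del-cIDR from inactive del-cIDR was -1.97 (SE 0.424, limma adjusted p = 0.00756), and that of FL from inactive FL was -1.60 and just missed the threshold (limma adjusted p = 0.0549). Against Col-0 it was called lower in del-cIDR (-2.43, limma adjusted p = 1.32e-07) and FL (-1.43, 0.00708), and not in inactive del-cIDR (-0.45, 0.357) or inactive FL (0.17, 0.710).

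The call between del-cIDR and its inactive form was lost without del-cIDR library 1, inactive del-cIDR library 2 or either Col-0 library, and with no trend in the error. Of the overlapping genes, the input table gave AT1G25098 signals of 41.5 and 59.1 in del-cIDR plants, 29.4 and 23.4 in inactive del-cIDR, 51.8 and 99.0 in FL, 41.6 and 44.3 in inactive FL, and 31.4 and 33.5 in Col-0. The input signals of del-cIDR, FL and inactive FL lay above those of the 2 Col-0 libraries. The m6A ratios at the peak lay below Col-0 in del-cIDR and FL, and overlapped it in inactive FL.

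The comparison of del-cIDR with FL sets the 2 active forms side by side. Here too, the missing cIDR, the line and the transgene level cannot be told apart. A total of 6 of the 230 were called lower in del-cIDR and 0 higher, against 0.873% of all peaks and 0.595% of the other nuclear peaks called lower, with a median log2 difference of -0.52 and 214 of 230 below 0. All 6 lay at rRNA loci, near centromeres or in AT3G54580. At chr5:11703561-11704463, whose values are given above, the difference was -1.96 (SE 0.406, limma adjusted p = 0.000776). At chr3:14193775-14194913, next to the rRNA genes, the ratios were 0.799 and 0.109 in del-cIDR and 3.72 and 2.35 in FL, with a difference of -1.91 (SE 0.396, limma adjusted p = 0.000776). At chr3:13590162-13591253, near the centromere, they were 0.296 and 0.311 in del-cIDR and 1.86 and 2.05 in FL, a difference of -1.56 (SE 0.326, limma adjusted p = 0.000776).

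The other 3 calls were at chr2:5695-6482 at the rRNA locus (-1.31, limma adjusted p = 0.00331), at the longer peak of AT3G54580 (-1.32, 0.0416) and at chr3:13591708-13592499 near the centromere (-1.43, 0.0416). In all 6 the libraries of del-cIDR and FL did not overlap. The count was 1 without del-cIDR library 2, 3 without del-cIDR library 1 and 26 without FL library 1, and 0 with no trend in the error. Without the rRNA-locus peaks 4 remained.

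Of the widest peaks 0 were called higher in any of the 7 contrasts. The smallest adjusted p of the higher peaks named here was at AT2G01010, whose values are given above, in del-cIDR against FL (log2 difference 0.61, limma adjusted p = 0.208). Between FL and inactive FL, the peak at chr3:13590162-13591253 had 1.86 and 2.05 in FL against 0.696 and 0.605 in inactive FL (1.07, limma adjusted p = 0.222), and that at chr3:14193775-14194913 had 3.72 and 2.35 in FL against 1.12 and 0.789 in inactive FL (1.24, limma adjusted p = 0.330). In AT5G35560 the ratios were 13.0 and 17.7 in FL against 10.4 and 16.2 in Col-0 (log2 difference 0.21, limma adjusted p = 0.727). In AT3G47875, a pseudogene, they were 4.93 and 5.53 in del-cIDR against 0.917 and 4.37 in inactive del-cIDR (1.11, limma adjusted p = 0.421). One further peak was uneven between libraries. In AT2G28060, which encodes a beta subunit of the SnRK1 energy-sensing kinase (KINbeta3), the FL libraries were 0.356 and 3.34 against 8.02 and 7.05 in Col-0. The FL difference passed (-2.11, limma adjusted p = 0.000207), but it was -1.05 and not called without FL library 1.

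The input libraries give the RNA of the host genes, as the authors' signal scaled to spike-ins. In bulk seedlings, fewer cells of a type and less RNA per cell cannot be told apart. Of the 176 genes that hold the widest peaks, 173 were in the input table. In del-cIDR against Col-0, 7 of 173 were lower and 134 higher, against 1.85% and 65.5% of all 30613 features, and in FL 2 were lower and 147 higher, against 1.47% and 75.5%. In inactive del-cIDR 50 were lower and 49 higher, against 7.84% and 32.4%, and in inactive FL 6 were lower and 67 higher, against 3.12% and 16.9%. Of 1937 genes that hold only other nuclear peaks, 74.4% were higher in del-cIDR and 72.4% in FL, beside 77.5% and 85.0% of the 173. In inactive del-cIDR 23.2% of them were lower and 29.2% higher, beside 28.9% and 28.3%. In inactive FL 7.59% were lower and 21.2% higher, beside 3.47% and 38.7%.

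These counts turn with the scaling. The median of all features was itself shifted by 0.56 in del-cIDR, 0.31 in inactive del-cIDR, 0.67 in FL and 0.22 in inactive FL on the log2 scale. The hosts' medians were 0.40 in del-cIDR, 0.01 in inactive del-cIDR, 0.39 in FL and 0.14 in inactive FL, below that of all features in each. Genes that hold only other nuclear peaks had medians of 0.36, 0.03, 0.30 and 0.07 in the same order. With every library centred on its median, 82 of 173 hosts were lower and 15 higher in del-cIDR, 124 and 16 in FL, and 57 and 14 in inactive FL. Without Col-0 library 2, 41 hosts were called in inactive FL against 73 with all libraries. Pseudogene hosts had medians of 0.65 in del-cIDR, 0.14 in inactive del-cIDR, 0.76 in FL and 0.48 in inactive FL.

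Between active and inactive forms, 6 hosts were lower and 121 higher in del-cIDR, against 2.76% and 28.7% of all features, and 2 were lower and 111 higher in FL, against 0.751% and 58.1%. Of the genes that hold only other nuclear peaks, 67.6% were higher in del-cIDR and 64.7% in FL, beside 69.9% and 64.2% of the 173. Between del-cIDR and FL 49 were lower and 38 higher, against 20.0% and 10.6%. With libraries centred on their medians the FL comparison turned to 124 lower and 11 higher. For FL the direction of the hosts' RNA thus depended on the scaling.

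Opposite signs of host RNA and m6A ratio against Col-0 were common in the active lines. All 230 widest peaks were below 0 in del-cIDR and 228 in FL, but 16 and 3 of the 173 hosts. In inactive del-cIDR and inactive FL 84 and 31 hosts were below 0. The denominator of the ratio is not stated, so RNA and ratio may not be independent measures. Single hosts with opposite or equal directions follow. AT1G29920 (CAB2) had input signals of 24591.6 and 24691.1 in del-cIDR plants, 39820.8 and 39826.0 in inactive del-cIDR, 13769.2 and 13553.6 in FL, 13726.6 and 13617.0 in inactive FL, and 5398.52 and 5222.37 in Col-0. It was higher in all 4 lines, by log2 differences of 2.21, 2.91, 1.36 and 1.36 (limma adjusted p at most 4.87e-36), while its m6A ratio was lower in all 4. AT3G54580 had 206 and 209 in del-cIDR plants, 144 and 176 in inactive del-cIDR, 340 and 371 in FL, 237 and 248 in inactive FL, and 282 and 226 in Col-0, so that its RNA was lower in del-cIDR (-0.27, limma adjusted p = 0.0354) and higher in FL (0.48, limma adjusted p = 0.000290, but below the FL shift of 0.67 over all features), and its m6A ratio lower in both. AT2G15880 had 2805 and 2854 in inactive del-cIDR against 8528 and 8333 in Col-0 (-1.57, limma adjusted p = 7.82e-38). Its m6A ratio was lower in that line as well. FCA had 1831 and 1893 in del-cIDR against 1751 and 1782 in Col-0, with a difference of 0.08 that did not pass (limma adjusted p = 0.205).

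Genes of the m6A machinery were read in the same input libraries. Of 6 writer genes, 4 were higher in del-cIDR than in Col-0 and 5 in FL, 0 were higher and 1, HAKAI, lower in inactive del-cIDR, and 0 passed in inactive FL. Of all features, 65.5% were higher in del-cIDR, 32.4% in inactive del-cIDR, 75.5% in FL and 16.9% in inactive FL, so the writer counts in del-cIDR and FL were near those shares. MTA, the catalytic subunit, had 448 and 452 in del-cIDR plants, 292 and 314 in inactive del-cIDR, 436 and 434 in FL, 308 and 330 in inactive FL, and 317 and 294 in Col-0. Of 5 eraser genes, 4 were higher in del-cIDR, 3 in inactive del-cIDR with 1, ALKBH10B, lower, 4 in FL and 4 in inactive FL. ALKBH9B had 316 and 359 in del-cIDR plants, 291 and 320 in inactive del-cIDR, 386 and 393 in FL, 256 and 285 in inactive FL, and 215 and 223 in Col-0. Of 13 reader genes, 6 were higher and 2 lower in del-cIDR, 1 higher and 3 lower in inactive del-cIDR, 10 higher in FL, and 2 higher and 2 lower in inactive FL. Of these 3 lists, the median log2 differences in del-cIDR were 0.40 for writers, 0.65 for erasers and 0.24 for readers, beside the shift of 0.56 over all features. Relative to that shift only the erasers were above it, in FL as in del-cIDR. The FL medians were 0.40 for writers, 0.81 for erasers and 0.44 for readers beside 0.67. The same held in both inactive lines. The eraser median was 0.46 in inactive del-cIDR, beside a shift of 0.31, and 0.31 in inactive FL, beside 0.22. Of the 5 erasers, ALKBH10B was below the shift in all 4 lines. ALKBH9A had only 1.92 and 3.41 in Col-0, under the pseudocount of 6.94.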

How the data were processed

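Chromatin-associated RNA depleted of ribosomal RNA (200 ng, fragmented) was immunoprecipitated with an antibody against m6A, with m6A and unmodified spike-ins added, per the labels' protocols. Tools listed without versions in the submitters' processing notes are MACS2, HISAT2, featureCounts, fastp, Picard, bedtools and SAMtools, and the build is TAIR10. The authors deposited, per peak, a ratio for each of 10 IP libraries, in which the m6A spike-in has 1 value, 10.579. They also deposited a scaled input signal for each of 10 input libraries and 30613 features. Neither table gives counts, so depth is unknown and no counting interval is possible; whole reads could not be recovered from either.

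Peak classes came from RefSeq's gene table for TAIR10.1, used for names and overlap. It holds no strand here, and neither genome nor sequences were used. Each table was fitted with limma 3.58.1 in R 4.3.3 on log2(value + pseudocount), with 5 genotype means, an error trend over level and 7 contrasts, with Benjamini-Hochberg adjustment over the whole table. Pseudocounts, the 5th percentile of values above 0, were 0.542 for ratios and 6.94 for signals, and features had to reach them in at least 2 libraries. All 230 widest peaks passed. The fit gave the m6A table an infinite prior df, so a peak's error comes from its level and not from its own 2 libraries. The script was tested on simulated data. Members, gene lists and loci were chosen with earlier results of these data known. Peaks are named as the 10 widest, the 5 highest and 5 lowest in level, the smallest p per direction and contrast, and members of the loci, which were grouped after hosts and values were seen. The alternatives tried were other pseudocounts and filters, no error trend, centring, other numbers of widest peaks, 2 genotypes only in the fit, a replicate block, and leaving out each library or the rRNA loci.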

Additional observations from a re-analysis of the deposited data

How the results depend on the processing

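Counts of the widest peaks called depended on the settings more than the differences did. With a pseudocount of 1, 1 peak was called in FL against inactive FL, and with 0.1, 25 in FL against Col-0. Among peaks at or above the median level only, 82 were called in del-cIDR against Col-0 and 0 in FL, inactive del-cIDR and inactive FL against Col-0, in del-cIDR against inactive del-cIDR and in del-cIDR against FL. There the median difference of the widest minus the other peaks was -0.0750 in FL, -0.105 in inactive del-cIDR and 0.0475 for del-cIDR against FL. With no error trend, 16 were called in FL and 34 in inactive FL against Col-0, and 0 in del-cIDR against inactive del-cIDR and against FL. Centred on the other nuclear peaks, 0 were called in all 7 contrasts. With only the 2 genotypes compared in the fit, 28 were called in FL and 174 in inactive FL against Col-0, and 0 in del-cIDR against FL. The cause of these changes was not tested.

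For the widest 5.12% of nuclear peaks, 1 was called in del-cIDR against inactive del-cIDR and 6 against FL, the level offset was 0.343, and the median difference was -0.0805 in inactive FL against Col-0 and 0.0634 in FL against inactive FL. For the widest 20.5%, 2 were called in FL against inactive FL, the offset was 0.141, and the median difference was -0.00754 in del-cIDR against inactive del-cIDR. Without the rRNA-locus peaks, an alternative chosen after seeing the data, 168 were called in del-cIDR, 37 in FL, 47 in inactive del-cIDR and 38 in inactive FL against Col-0.

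Leaving out each library in turn gave 68 to 206 called in del-cIDR, 14 to 172 in FL, 41 to 90 in inactive del-cIDR and 31 to 86 in inactive FL against Col-0, 0 to 1 in del-cIDR and in FL against their inactive forms, and 1 to 26 in del-cIDR against FL. The median difference ranged from -0.0640 to 0.0809 in del-cIDR, -0.0720 to 0.00483 in FL, -0.0798 to -0.0375 in inactive del-cIDR, -0.0205 to -0.000709 in inactive FL, 0.0104 to 0.0912 in del-cIDR against inactive del-cIDR, -0.0297 to 0.0315 in FL against inactive FL and -0.0573 to 0.0360 in del-cIDR against FL. The offset ranged from 0.181 to 0.200. Single peaks that were not called changed sign: AT5G35560 ranged from -0.0955 to 0.525 in FL, with -0.00280 without FL library 2, and from -0.117 to 0.503 in inactive del-cIDR. AT2G43850 ranged from -0.723 without FL library 2 to 0.955 in FL, with -0.158 without Col-0 library 2. In inactive FL AT3G00560 ranged from -0.0700 to 0.205, with -0.0348 without inactive FL library 2, and chr1:8814591-8816593 from -0.0152 to 0.349.

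Input hosts called were 97 in del-cIDR, 140 in FL and 71 in inactive FL against Col-0, 63 in del-cIDR and 135 in FL against their inactive forms with libraries centred on their medians. With no trend they were 61 in inactive del-cIDR and 24 in inactive FL against Col-0, 54 in FL against inactive FL and 41 in del-cIDR against FL. Without single libraries they ranged from 41 to 76 in inactive FL.

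Same-numbered libraries did not all deviate together (correlations of -0.23 to 0.35 for m6A, 6 of 10 over 0.1, and -0.04 to 0.10 for input, 1 of 10). Whether the numbers pair the samples is not stated, and these values do not settle it. With a replicate block 1 peak was called in FL against inactive FL, and other counts stayed within 1.5 times. The alternatives that need sequences or strand were not run. Depth is unknown, and the 2 libraries a genotype limit the precision.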
